A study of Mus musculus with 21 samples.

Results

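Sycp1, Sycp3, Dazl, Ddx4, Mael, Stk31, Taf7l and Mov10l1 are 8 mouse genes that serve germ cells and meiosis. They were taken by name, and all 8 are among the 24458 genes of the embryoid body table. The libraries came from mouse embryonic stem cells that were wild type or knockout for Cxxc5, the gene of the CXXC zinc finger protein Rinf, and from the embryoid bodies (aggregates of differentiating cells) grown from them by hanging drop. RNA was taken at day 0, day 3 and day 6, with 2 libraries for each genotype on each day and 12 libraries in all. Each genotype was represented by 2 independent stem cell lines of mixed 129/C57BL/6 strain, labelled Rinf Wild type or Rinf Knockout, and no other treatment is named. The labels do not say which line gave which library, so the days of a genotype are not known to be independent. A separate table of stem cells kept in serum and LIF (leukaemia inhibitory factor), cultured on feeder cells that were removed before harvest, gives the same genes by genotype.

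In the mouse embryo, germline genes of this kind are shut down around implantation, when DNA methylation is laid down on the CpG-rich promoters that these genes have. Before that, a variant Polycomb complex (PRC1.6) is recruited to many of them by the MGA and MAX proteins, which bind the E-box CACGTG, and by E2F6, and it holds them low. Naive stem cells grown in serum are known to transcribe some of these genes at a low level. DNA methylation was not measured here, so the values below are of RNA only, and a lower level in bulk RNA cannot be told apart from fewer cells that express the gene.

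The promoters are shown first because most of the 8 genes hold the same E-box. In a window from 250 bases before to 50 bases after each RefSeq start site (GRCm38), CACGTG was present for 7 of the 8 genes, or 87.5%, against 8.09% of 27025 genes in the same table. The motif is its own reverse complement, so both strands are covered. Among the 10038 genes with a promoter of at least 15 CpG, the lowest number among the 8 genes, 12.0% had it. The E-boxes are given with 12 bases on each side where the window allows, 5′ to 3′ on the gene's strand, with the motif in capitals.
Sycp1 (chr3:102936177-102936206, minus strand): tagagaacccggCACGTGggaagggaaatc
Sycp3, upstream match (chr10:88459511-88459540, plus strand): gccgttggctccCACGTGagaacgggcatg
Sycp3, downstream match (chr10:88459532-88459561, plus strand): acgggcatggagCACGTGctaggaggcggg
Ddx4 (chr13:112652322-112652351, minus strand): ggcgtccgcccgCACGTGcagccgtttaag
Mael (chr1:166238950-166238979, minus strand): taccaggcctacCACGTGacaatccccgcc
Stk31 (chr6:49395472-49395501, plus strand): aggccggccaccCACGTGaccagggctgcg
Taf7l (chrX:134476522-134476551, minus strand): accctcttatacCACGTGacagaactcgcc
Mov10l1 (chr15:88982744-88982765, plus strand): ccttCACGTGctaaccgccaac

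Sycp3 had 2 E-boxes, which start 64 and 43 bases before the start site, and Dazl had none in the window. In the other genes the first base of the motif lay between 29 bases (Ddx4) and 246 bases (Mov10l1) before the start, and for Stk31, which has 2 annotated starts, 55 bases before the one nearer to it. The E2F-type motif GCGGGAA, searched on both strands, was in the windows of Sycp3 and Ddx4, 2 of 8 genes or 25.0%, against 5.29% of all genes, 11.1% of those with at least 15 CpG and 8 of 17 (47.1%) of the other meiosis genes described next. CpG counts in the windows ran from 15 in Sycp3 to 38 in Ddx4, where the median promoter of the table has 7. A match is a run of letters and does not show that a protein binds there. Of 20 other meiosis genes, 17 had a promoter in the table and 5 of those (29.4%) held CACGTG, and among 16 other genes of the piRNA pathway it was 5 of 13 (38.5%).

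**Figure D1:**
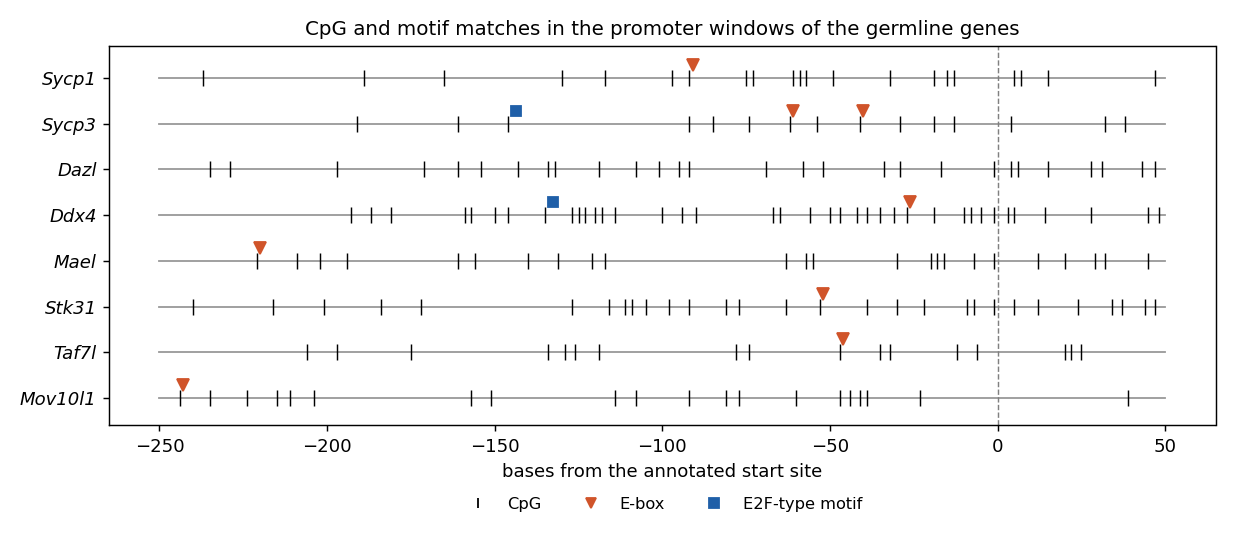
CpG sites (black ticks), the E-box CACGTG (orange triangles) and the E2F-type motif GCGGGAA (blue squares) by distance in bases from the annotated start site (dashed line) in the 300-base windows of the 8 genes; for Stk31 1 of its 2 annotated starts is drawn. Sycp3 carries 2 E-boxes, Dazl none, and the window of Ddx4 holds the most CpG, 38.

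The 250 bases upstream of the start are printed for the pair of synaptonemal complex genes, whose levels differed between genotypes on day 6, and for Dazl, the gene without an E-box. Capitals mark CpG, the site of methylation in mammals. Sycp1 has 17 CpG in this stretch, Sycp3 12 and Dazl 20.
Sycp1 (chr3:102936101-102936350, minus strand): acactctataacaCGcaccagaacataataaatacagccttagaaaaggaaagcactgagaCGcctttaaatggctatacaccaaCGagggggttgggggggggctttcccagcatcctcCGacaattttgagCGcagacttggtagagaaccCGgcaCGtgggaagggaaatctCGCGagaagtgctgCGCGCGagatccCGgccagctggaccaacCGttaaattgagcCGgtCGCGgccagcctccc
Sycp3 (chr10:88459337-88459586, plus strand): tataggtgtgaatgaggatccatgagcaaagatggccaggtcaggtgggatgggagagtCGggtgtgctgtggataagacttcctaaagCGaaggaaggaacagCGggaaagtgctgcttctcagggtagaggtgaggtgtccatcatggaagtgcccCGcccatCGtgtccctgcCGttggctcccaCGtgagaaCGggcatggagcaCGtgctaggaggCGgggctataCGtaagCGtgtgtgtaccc
Dazl (chr17:50293621-50293870, minus strand): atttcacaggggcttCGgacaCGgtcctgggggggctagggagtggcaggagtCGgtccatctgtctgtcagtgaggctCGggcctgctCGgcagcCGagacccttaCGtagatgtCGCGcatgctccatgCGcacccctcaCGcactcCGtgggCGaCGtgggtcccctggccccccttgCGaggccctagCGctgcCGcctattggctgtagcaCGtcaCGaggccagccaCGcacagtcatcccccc

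All 8 genes were transcribed at day 0, and all were lower by day 6. Levels are FPKM, fragments scaled to transcript length and library size, the unit in which the table was deposited. A gene was called near 0 when its mean over the 12 libraries was under 0.1 FPKM, low from 0.1 to under 1, and tested at 1 or more. By this rule none of the 8 was near 0, Taf7l was low with a mean of 0.633, and the other 7 were tested. At day 0 the group means of all 8 were at least 1 FPKM in both genotypes, and the means over the 4 day 0 libraries stood between the 53.9th (Taf7l) and the 80.5th (Ddx4) percentile of all genes of the table. At day 6 the means of 3 genes in wild type (Ddx4, Sycp1 and Sycp3) and of 0 genes in knockout were still at 1 or more. The lowest single value was 0.0960, for Taf7l in a wild type library of day 6.

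The order at day 0 was led by Ddx4 with 18.4 ± 2.93 FPKM (SD, n = 2) in wild type, followed by Sycp3 with 8.86 ± 0.475 and Mael with 5.64 ± 0.835. Sycp1 (4.77 ± 0.271), Stk31 (4.03 ± 0.526) and Mov10l1 (3.76 ± 0.377) came next, and Dazl (2.88 ± 0.296) and Taf7l (1.35 ± 0.162) were lowest. The SDs of Mael and Sycp1 meet, as do those of Sycp1 and Stk31 and of Stk31 and Mov10l1, so the order of these neighbours is not resolved.

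The targeted gene followed the labels. Cxxc5 was between 25.1 and 52.3 FPKM in the 6 wild type libraries of the day series and between 5.05 and 11.9 in the 6 knockout libraries, without overlap, so signal for the gene was not at 0 in the knockout. Library depth was estimated from the FPKM worth of a single read at about 14900000 to 32300000 reads, so that 0.2 FPKM in a transcript of 2 kilobases stands for 5.96 to 12.9 reads. By the same estimate the 8 genes rest on 44 to 1316 reads at day 0 and on 5 to 189 at day 6. The summed FPKM of 5 pluripotency markers (Pou5f1, Sox2, Nanog, Zfp42, Esrrb) ran from 1144 to 1322 at day 0 and from 628 to 715 at day 3. On day 6 it was 469 and 238 in the wild type libraries and 250 and 97.5 in the knockout libraries. Markers of late spermatids (6 of 6 near 0, summed level at most 0.489) and of 2-cell-like cells (6 of 7 near 0, summed level at most 0.942) were close to absent. The summed level of 9 fibroblast markers, which would mark feeder cells or newly formed mesenchyme, was 6.91 to 31.9 FPKM, highest in a knockout library of day 6. Of its members Fbn1 (1.08 ± 0.34, adjusted p = 0.0375, limma) and Twist2 (1.51 ± 0.43, adjusted p = 0.0263, limma) were higher in knockout on day 6, as log2 differences, and Thy1 and Col1a1 were the most abundant. The list did not move as one on day 6. The means of Col1a1, Col3a1, Postn and Lum were higher in knockout, and those of Thy1, Dcn and Col1a2 (2.10 against 2.07 FPKM) lower, without a call. At day 0 the knockout libraries already differed from each other, with sums of 17.5 and 6.91. Of 5 gonadal support cell markers, Rhox5, Dmrt1 and Sox9 had means of 65.8, 8.31 and 2.57 FPKM, and Amh and Foxl2 means below 1. In both genotypes the means of Rhox5 and Dmrt1 were highest at day 0 and that of Sox9 on day 6. The list therefore does not stand for a single cell type here.

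Between day 0 and day 3 the germline genes fell in both genotypes, with a single exception. Tests used limma on log2(FPKM + 1) over the 12472 genes with a mean of at least 1 FPKM. Adjustment was Benjamini-Hochberg over all of them, with a threshold of 0.05, and fold changes on this scale understate the change of low genes. The filter takes the mean over all days. Dazl, Stk31 and Mov10l1 passed it mainly through day 0, which tilts counts towards falls. In wild type 6 of the 7 tested genes were lower at day 3 (all but Sycp3), in a comparison in which 55.7% of all tested genes passed and 30.2% were lower. The same 6 were lower in knockout, where 52.6% of all genes passed and 28% were lower. The median log2 difference of the 7 genes was -1.12 in wild type and -1.11 in knockout, against -0.02 over all tested genes in each genotype.

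**Figure D2:**
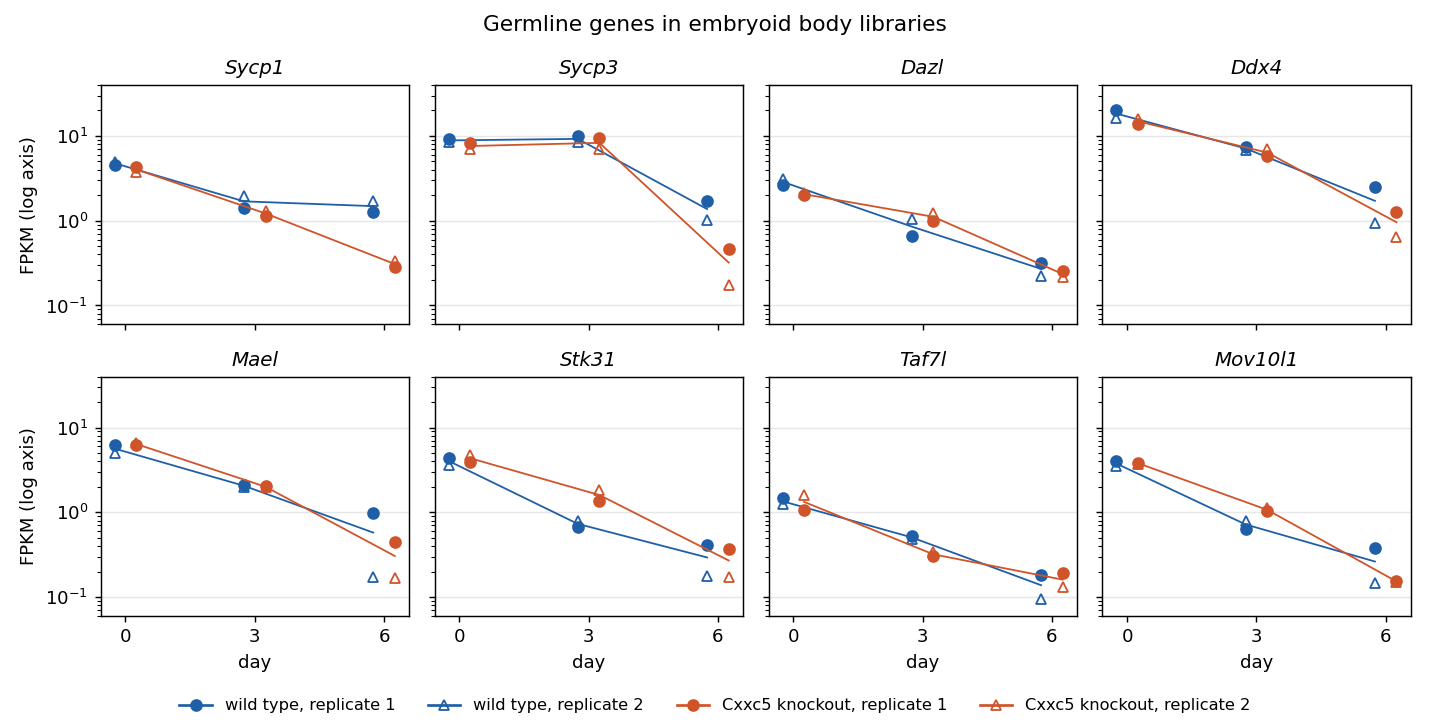
FPKM of the 8 germline genes (log axis) by day in each embryoid body library; blue is wild type, orange is Cxxc5 knockout, filled circles are replicate 1, open triangles replicate 2, and lines join the means of 2 libraries. Sycp3 stays level from day 0 to day 3. The knockout libraries lie below wild type on every day for Sycp1 and on day 0 and day 6 for Sycp3, furthest on day 6.

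The first group of genes builds the synaptonemal complex, the protein ladder that holds paired chromosomes together in meiosis. Sycp1 encodes its transverse filament. It was 4.58 and 4.96 FPKM in wild type and 4.26 and 3.80 in knockout at day 0, and 1.42 and 1.96 in wild type and 1.13 and 1.31 in knockout at day 3. The day 0 and day 3 libraries did not overlap in either genotype. A near-copy, the pseudogene Sycp1-ps1, is listed separately, and how reads shared by the pair were assigned is not stated. The log2 difference of Sycp1 was -1.11 ± 0.14 (SE, adjusted p = 0.000201, limma) in wild type and -1.18 ± 0.14 (adjusted p = 0.000179, limma) in knockout.

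Sycp3 encodes a component of the lateral elements. It stood apart from the other 7 genes in this step: it was 9.19 and 8.52 FPKM in wild type and 8.22 and 6.998 in knockout at day 0, and 9.94 and 8.53 in wild type and 9.55 and 7.04 in knockout at day 3. The libraries of the 2 days overlapped in both genotypes. Its day 3 mean was 104% of day 0 in wild type and 109% in knockout, with log2 differences of 0.05 (95% interval -0.37 to 0.48) and 0.10 (-0.33 to 0.53). Sycp3 shares 660 of its 1264 exon bases with Chpt1, a phospholipid synthesis gene on the opposite strand, and whether counting used the strand is not stated in the labels. Reads in the shared part cannot then be assigned to either gene. Chpt1 itself was between 3.81 and 7.22 FPKM in all 12 libraries.

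Dazl and Ddx4 encode RNA-binding proteins of germ cells, Dazl a translational regulator and Ddx4 (Vasa) an RNA helicase that marks germ cells in many animals. Ddx4 was the most abundant of the 8 at day 0, with 20.4 and 16.3 FPKM in wild type and 14.0 and 15.8 in knockout. By day 3 it was 7.37 and 6.86 in wild type and 5.79 and 6.95 in knockout, clear of the day 0 values. Its log2 difference was -1.25 ± 0.26 (adjusted p = 0.00364, limma) in wild type and -1.11 ± 0.26 (adjusted p = 0.00707, limma) in knockout. The knockout call was lost without knockout replicate 2 of day 0 or without knockout replicate 1 of day 3, where the adjusted p was 0.0503 and 0.0525 (limma).

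Dazl was 2.67 and 3.09 FPKM in wild type and 2.01 and 2.10 in knockout at day 0, and 0.651 and 1.05 in wild type and 1.00 and 1.22 in knockout at day 3. The genotypes thus stood in opposite order on the 2 days, without overlap at day 0 and with overlap at day 3. The fall was -1.07 ± 0.14 on the log2 scale in wild type (adjusted p = 0.000285, limma) and -0.53 ± 0.14 in knockout (adjusted p = 0.0121, limma). The test of the difference between these falls gave 0.54 ± 0.20 (unadjusted p = 0.0253, adjusted p = 0.582, limma), which did not pass. The knockout fall did not pass when each library was rescaled to the same sum (adjusted p = 0.0511, limma) or without either of the same 2 libraries as for Ddx4 (adjusted p between 0.00513 and 0.0672 over its alternatives, limma).

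Mael and Mov10l1 act in the piRNA pathway, in which small RNAs guide the silencing of transposons in the germline: Mov10l1 is a helicase needed to make piRNAs, and Mael acts downstream of them. Mael was 6.23 and 5.05 FPKM in wild type and 6.25 and 6.53 in knockout at day 0, and lay between 1.98 and 2.10 in all 4 libraries of day 3. Mov10l1 was 4.02 and 3.49 in wild type and 3.85 and 3.75 in knockout at day 0, and 0.642 and 0.794 in wild type and 1.02 and 1.12 in knockout at day 3. For both genes the days did not overlap. Mov10l1 gave the smallest adjusted p of the 7 genes in this step, with log2 differences of -1.47 ± 0.13 in wild type (adjusted p = 2.99e-05, limma) and -1.21 ± 0.13 in knockout (adjusted p = 0.000107, limma). The values for Mael were -1.12 ± 0.22 (adjusted p = 0.00266, limma) and -1.30 ± 0.22 (adjusted p = 0.00134, limma), and the wild type call was lost with a pseudocount of 0.1 (adjusted p = 0.0548, limma).

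Stk31 encodes a germ cell kinase-like protein with a Tudor domain, and Taf7l a germ cell paralog of the general transcription factor subunit Taf7. Stk31 was 4.40 and 3.66 FPKM in wild type and 3.97 and 4.72 in knockout at day 0, and 0.669 and 0.790 in wild type and 1.37 and 1.82 in knockout at day 3. It had the largest wild type fall of the 7 genes, -1.54 ± 0.16 (adjusted p = 7.29e-05, limma), and in knockout it fell by 1.04 ± 0.16 (adjusted p = 0.000722, limma). Taf7l was 1.46 and 1.24 in wild type and 1.06 and 1.60 in knockout at day 0, and 0.526 and 0.484 in wild type and 0.303 and 0.336 in knockout at day 3. It entered the test only when the filter was lowered to a mean of 0.1 FPKM. There its log2 difference was -0.64 ± 0.11 in wild type (adjusted p = 0.00151, limma) and -0.81 ± 0.11 in knockout (adjusted p = 0.000545, limma).

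From day 3 to day 6 the levels went down again, and Sycp3 joined them. In knockout 7 of 7 tested genes fell, where 59.1% of all tested genes passed and 29.9% were lower. In wild type 5 of 7 fell (Sycp3, Ddx4, Mael, Dazl and Mov10l1), where 35.9% passed and 18.4% were lower. The median log2 difference of the 7 genes was -1.03 in knockout and -0.54 in wild type, against 0.00 and -0.01 over all tested genes. The count in wild type was 0 when only those 4 libraries were fitted, a fit that called 16 of all 12472 genes. It was also smaller without wild type replicate 1 or 2 of day 3, or without replicate 2 of day 6. The 2 genes that did not pass in wild type were Sycp1 (-0.11 ± 0.14, adjusted p = 0.539, limma) and Stk31 (-0.42 ± 0.16, adjusted p = 0.0643, limma).

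Sycp3 had the largest fall of this step in both genotypes. From the day 3 values above it went to 1.73 and 1.01 FPKM in wild type and to 0.465 and 0.176 in knockout at day 6. The log2 difference was -2.12 ± 0.19 in wild type (adjusted p = 0.000776, limma) and -2.81 ± 0.19 in knockout (adjusted p = 4.03e-05, limma). Ddx4 was second, with -1.64 ± 0.26 in wild type (adjusted p = 0.00371, limma) and -1.93 ± 0.26 in knockout (adjusted p = 0.00047, limma).

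At day 6 the wild type levels ranged from 6.99% of day 0 for Mov10l1 to 31.1% for Sycp1, and the knockout levels from 4.02% for Mov10l1 to 12.1% for Taf7l. The remaining signal was uneven between the wild type libraries. Replicate 1 was above replicate 2 for 7 of the 8 genes, by 1.44 times for Dazl up to 5.65 times for Mael (0.979 against 0.173 FPKM), and Sycp1 alone was higher in replicate 2. Replicate 1 is also the library with the higher sum of pluripotency markers, 469 against 238 FPKM. In knockout at day 6 replicate 1 was likewise above replicate 2 for 7 of 8 genes, with marker sums of 250 and 97.5. The part of remaining stem cells in these differences was not tested.

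Across the 12 libraries the 8 genes moved closely together, with Pearson correlations of log2(FPKM + 1) between 0.667 and 0.989 over the 28 pairs and a median of 0.919. The libraries share the day series, so any genes that fall with time correlate in this way. The genes most like each tested gene, by the same correlation over the 12 libraries, were Gcnt2 (r = 0.997), Rsl24d1 and Frrs1 for Ddx4, and Krt42 (r = 0.996), Fam81a and Galnt6 for Stk31. For Mov10l1 they were D630045M09Rik (r = 0.995), Slc7a5 and Ubash3a, and for Mael Sephs2 (r = 0.995), Fgf4 and Kat2b. Dazl was nearest to C2cd5 (r = 0.993), the naive pluripotency factor Tfcp2l1 and Mief1. Sycp1 was nearest to Pex13 (r = 0.989), and Sycp3 to Zfp709 (r = 0.990), Zfp345 and Star.

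No difference between knockout and wild type passed the test for the 7 genes at day 0 or day 3. On day 0 the count past the threshold was 0 of 7, where 0.369% of all genes passed. By unadjusted p under 0.05 it was 1 of 7, where 14.7% of all genes were counted, and that gene was Dazl (unadjusted p = 0.0391, adjusted p = 0.311, limma). Wild type and knockout libraries were fully separated for 5 of the 7 genes, against 49.8% of all tested genes. On day 3 the count was again 0 of 7, where 1.19% passed, and by unadjusted p 1 of 7, where 14.8% did. The 95% intervals at day 0 reached from -0.88 to 0.66 on the log2 scale over the 7 genes, and changes within an interval cannot be told from none with 2 libraries a group.

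The day 3 gene with the lowest unadjusted p was Stk31. Its wild type libraries (0.669 and 0.790 FPKM) lay below its knockout libraries (1.37 and 1.82) without overlap, and the log2 difference was 0.58 ± 0.16 (unadjusted p = 0.00533, adjusted p = 0.136, limma). Mov10l1 was also higher in both knockout libraries at day 3 (difference 0.27, 95% interval -0.02 to 0.56), while Sycp1 and Taf7l were lower in both. Non-overlap of this kind was seen for 3 of the 7 tested genes at day 3, against 60.3% of all tested genes.

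On day 6 Sycp1 and Sycp3 were lower in knockout, 2 of 7 tested genes, where 34.1% of all genes passed and 16.2% were lower. The count is thus near the background share, and these were the largest of the 7 differences. Sycp1 was 1.25 and 1.72 FPKM in wild type against 0.285 and 0.330 in knockout. Its knockout mean was 20.7% of wild type, after 84.5% on day 0 and 72.0% on day 3. Sycp3 was 1.73 and 1.01 against 0.465 and 0.176, and its knockout mean was 23.4% of wild type, after 85.9% on day 0 and 89.8% on day 3. Groups were fully separated for these 2 of the 7 genes, against 63.6% of all tested genes, and they overlapped for the other 5 and for Taf7l.

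The log2 difference of Sycp1 was -0.92 ± 0.14 (adjusted p = 0.00214, limma), and it passed in 17 of 18 alternatives. The exception was the fit of only the 4 libraries compared (adjusted p = 0.0853, limma), in which 20 of all 12472 genes passed. For Sycp3 it was -0.84 ± 0.19 (adjusted p = 0.0111, limma). That call was lost in the 4-library fit (adjusted p = 0.130, limma), without wild type replicate 1 (adjusted p = 0.0643, limma) and without knockout replicate 2 (adjusted p = 0.0806, limma), within a range of 0.00141 to 0.130 over its alternatives. Sox2, the pluripotency marker that passed on day 6, was 116 and 45.4 FPKM in wild type and 44.4 and 17.0 in knockout (-1.36 ± 0.46, adjusted p = 0.0485, limma). The fibroblast marker sum was 9.82 and 15.3 in wild type and 17.1 and 31.9 in knockout. Rhox5, of the gonadal support list, was 15.7 and 5.95 FPKM in wild type and 40.6 and 19.2 in knockout (1.43 ± 0.45, adjusted p = 0.0402, limma). It was also higher in knockout on day 0 (137 and 148 against 70.1 and 105) and day 3 (82.1 and 104 against 24.2 and 36.7), without a call. The part of the cells that Sox2 and the fibroblast markers stand for in the lower Sycp1 and Sycp3 was not tested.

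The other 5 tested genes gave log2 differences on day 6 from -0.43 ± 0.26 for Ddx4 (adjusted p = 0.228, limma) to -0.02 ± 0.16 for Stk31 (adjusted p = 0.922, limma). Without wild type replicate 2, the differences of Ddx4 and Mael were larger, at -0.85 and -0.61. Without wild type replicate 1, the differences of Dazl, Mael, Stk31 and Mov10l1 were above 0. The direction of these 4 genes on day 6 therefore rests on that library, and that of Stk31 also changed without knockout replicate 2.

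**Figure D3:**
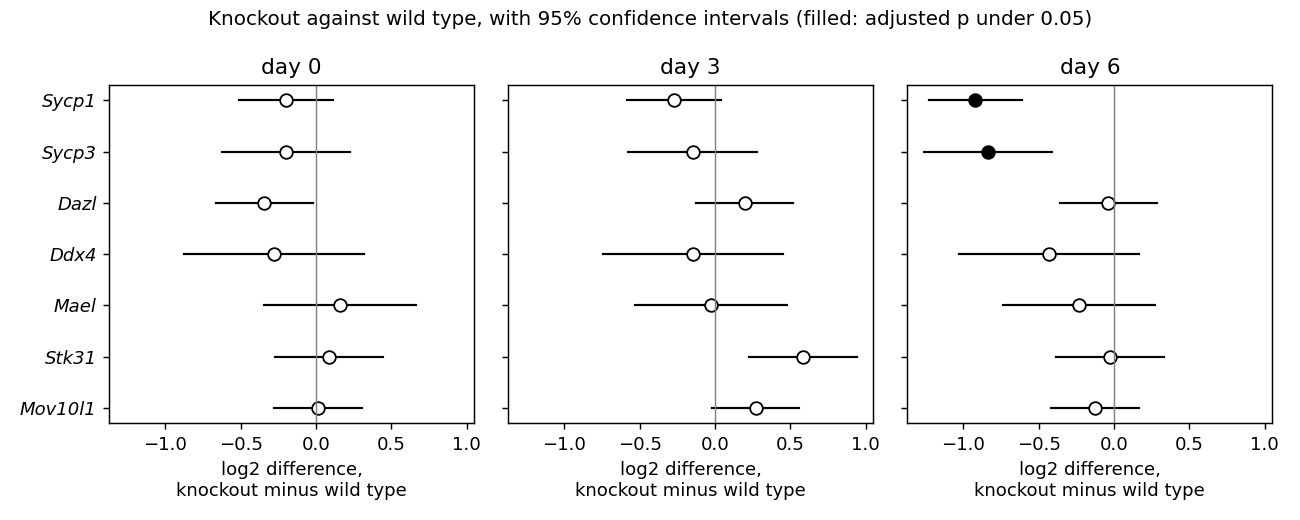
Log2 difference in FPKM + 1, knockout minus wild type (points) with 95% confidence intervals (bars) from limma for the 7 tested genes on day 0, day 3 and day 6, with 2 libraries a group; filled points passed the adjusted threshold of 0.05. Sycp1 (-0.92) and Sycp3 (-0.84) on day 6 are the filled points.

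Whether the genotypes differed in the change between days was tested with interaction terms. For day 3 against day 0 the count was 0 of 7 (0.0401% of all genes passed), with 1 of 7 at an unadjusted p under 0.05, against 7.67% of all genes. For day 6 against day 3 it was 0 of 7 (4.51% of all genes passed), with 3 of 7 at an unadjusted p under 0.05, against 25.2% of all genes. These 3 were Sycp1 (-0.65 ± 0.19, unadjusted p = 0.00908, adjusted p = 0.0918, limma), Sycp3 (-0.69 ± 0.26, unadjusted p = 0.0299, adjusted p = 0.156, limma) and Stk31 (-0.61 ± 0.22, unadjusted p = 0.0243, adjusted p = 0.143, limma). A steeper fall in knockout between day 3 and day 6 was thus not established for any of them.

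The stem cell table holds all 8 genes, and none was near 0 there. It lists 3 values per genotype where the labels describe 2 libraries, so values are given by condition as mean and range, with no test. Ddx4 was again highest, at 11.6 FPKM (10.3 to 12.8) in wild type and 9.76 (9.44 to 10.4) in knockout, and the ranges overlap narrowly. Sycp3 was 3.83 (3.40 to 4.08) in wild type and 4.26 (3.90 to 4.84) in knockout, and Sycp1 was 3.49 (2.78 to 4.57) and 2.76 (2.17 to 3.34). Neither gene showed in these cells the gap between genotypes that it had on day 6.

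Mael was 2.88 (2.58 to 3.33) in wild type and 3.39 (3.35 to 3.43) in knockout, on 37 to 52 fragments. It was the only gene of the 8 whose ranges did not overlap, and they all but met. The share of all genes with separate ranges was not computed here, so nothing is read from this. Taf7l was lowest at 0.733 (0.336 to 1.19) and 0.748 (0.669 to 0.865), Dazl was 1.47 (0.778 to 2.51) and 1.198 (0.897 to 1.48), and Stk31 and Mov10l1 lay between 2.01 and 2.98 in all values. The knockout means ran from 79.1% of wild type for Sycp1 to 118% for Mael. Cxxc5 was 24.1 and 5.13 FPKM in the same table.

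Many other tested genes of the same programmes fell over the first step as well. Of 20 other meiosis genes 13 were tested. In wild type 11 were lower at day 3, where 30.2% of all tested genes were lower, with a median log2 difference of -1.41. In knockout 12 were lower, where 28% of all tested genes were, with a median of -0.95. The filter tilts these counts towards falls, since Hormad2, Stra8 and Tex11 reached a mean of 1 FPKM only through day 0. Genes that were low throughout do not enter the counts. Hormad1, which marks unsynapsed chromosome axes, was 12.0 and 13.6 FPKM in wild type at day 0 and 1.15 and 1.52 at day 3 (log2 difference -2.57 ± 0.22, adjusted p = 2.98e-05, limma). Stag3, a meiotic cohesin subunit, fell by 2.07 ± 0.08 (adjusted p = 9.91e-07, limma). Syce2, a central element protein, was the most abundant at 121 to 136 FPKM at day 0 and still 55.4 to 78.1 at day 6. In wild type, Meioc and Rec8 did not pass over the first step and fell over the second, Meioc by 1.03 ± 0.22 (adjusted p = 0.00928, limma) and Rec8 by 0.68 ± 0.14 (adjusted p = 0.00946, limma). In knockout Rec8 fell over the first step too, by 0.54 ± 0.14 (adjusted p = 0.0129, limma).

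On day 6, 2 of these 13 genes were lower in knockout, Meioc and Rec8, a count near the share of all tested genes that were lower (16.2%). Meioc, a regulator of meiotic prophase, was 2.65 and 1.11 FPKM in wild type against 0.565 and 0.311 (log2 difference -0.95 ± 0.22, adjusted p = 0.0119, limma). Rec8, a meiotic cohesin subunit, was 4.26 and 2.82 against 1.78 and 2.17 (-0.60 ± 0.14, adjusted p = 0.0152, limma). Neither gene's groups overlapped on day 6, as held for 63.6% of all tested genes. Meioc was also lower in both knockout libraries on day 0, at 5.96 and 6.04 FPKM against 3.70 and 3.77. The same held on day 3 for Meioc (4.31 and 5.02 against 2.77 and 2.66) and Rec8 (6.05 and 6.31 against 4.48 and 4.13). These earlier differences did not pass, and 49.8% of all tested genes were fully separated on day 0 and 60.3% on day 3. The median of the 13 genes was -0.26, against 0.02 over all tested genes.

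Among 16 other piRNA pathway genes 8 were tested, with the same tilt from the filter. In wild type 6 were lower and 1 higher at day 3, where 55.7% of all tested genes passed and 30.2% were lower. In knockout 5 were lower and 2 higher, where 52.6% passed and 28% were lower. Rnf17, a Tudor domain protein, was 27.6 and 19.9 FPKM in wild type at day 0 and 6.32 and 6.40 at day 3 (-1.73 ± 0.21, adjusted p = 0.000163, limma), and Piwil2, a PIWI protein, fell by 2.21 ± 0.15 (adjusted p = 9.1e-06, limma). Tdrd12, the most abundant of the list, was between 39.0 and 46.1 FPKM at day 0 and between 2.92 and 8.17 at day 6, and Tex19.1 went from between 14.5 and 20.3 to between 1.12 and 3.51. Tdrd7, a Tudor domain protein, rose from 0.527 and 0.273 to 1.67 and 1.61 FPKM in wild type over the first step (0.92 ± 0.13, adjusted p = 0.000511, limma), and in knockout by 0.89 ± 0.13 (adjusted p = 0.000744, limma). On day 6 Rnf17 (-0.66 ± 0.21, adjusted p = 0.0365, limma) and Tdrkh (-0.52 ± 0.11, adjusted p = 0.00752, limma) were lower in knockout. These 2 of 8 stand beside 34.1% of all tested genes that passed and 16.2% that were lower.

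**Figure D4:**
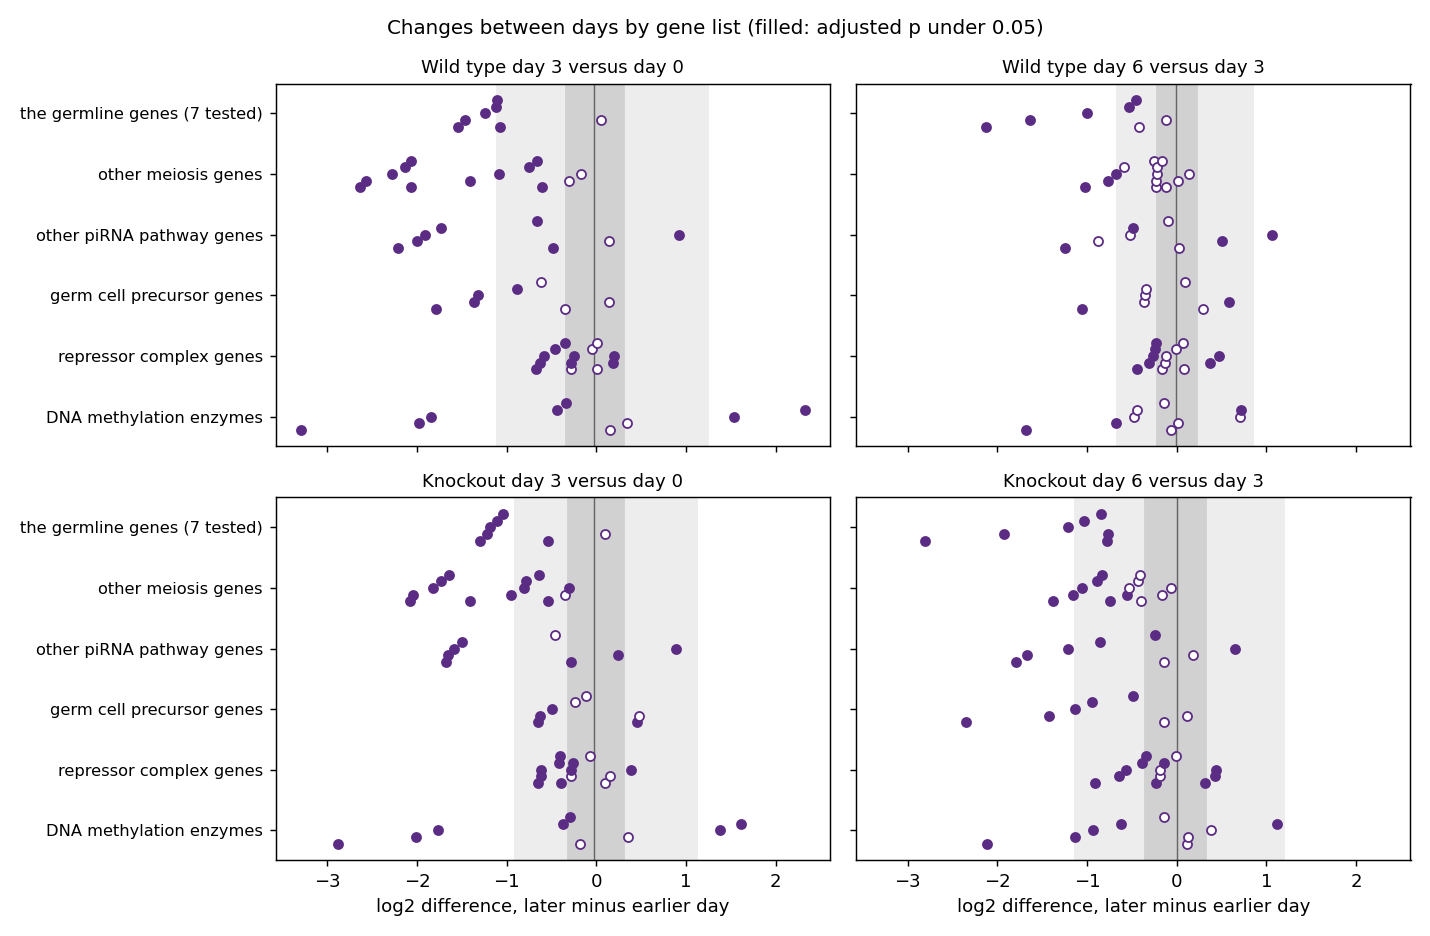
Log2 difference in FPKM + 1 between successive days (points, 1 per tested gene) by gene list, in wild type and knockout; filled points passed the adjusted threshold of 0.05, dark and light grey bands hold the middle 50% and 90% of all 12472 tested genes, and the line is their median. In the first step the germline genes other than Sycp3 lie left of the line in both genotypes, and in the second step Sycp3 is the leftmost of them.

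Genes of the early germ cell fate gave differences that passed on day 3. Of 7 tested precursor genes 2 were higher in knockout on day 3, where 1.19% of all tested genes passed in either direction: Dppa3 (28.3 and 29.0 FPKM against 80.9 and 100.2, log2 difference 1.62 ± 0.30, adjusted p = 0.0468, limma) and Tfap2c (11.1 and 15.1 against 28.6 and 35.2, 1.23 ± 0.20, adjusted p = 0.0312, limma). Their groups did not overlap on day 3, as held for 60.3% of all tested genes. Both adjusted p-values lie close to the threshold, and their dependence on the settings is not reported here. With only the day 3 libraries fitted, 5 of all 12472 genes passed, against 149 in the main fit. Both genes were already higher in both knockout libraries at day 0, where 0 of the 7 passed. There Dppa3 was 49.6 and 57.6 FPKM against 94.3 and 102, and Tfap2c 35.9 and 34.1 against 49.6 and 49.7. Kit, the receptor of stem cell factor and the third most abundant of this list, was 6.02 and 8.89 against 11.5 and 12.3 on that day (adjusted p = 0.152, limma).

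The enzymes of DNA methylation and the repressor proteins were measured in the same libraries. Dnmt3b, a de novo methyltransferase, was 79.8 and 70.0 FPKM in wild type at day 0 and 382 and 375 at day 3 (2.32 ± 0.24, adjusted p = 7.86e-05, limma), and it rose in knockout by 1.61 ± 0.24 (adjusted p = 0.000695, limma). Dnmt3l, its cofactor, and Tet1, an enzyme that oxidises methylcytosine, fell in both genotypes over the same step. Uhrf1, which guides maintenance methylation, fell by 0.33 ± 0.06 in wild type (adjusted p = 0.00103, limma). Between genotypes 0 of these 9 genes passed on day 0 and on day 3, where 0.369% and 1.19% of all tested genes did. On day 6, 2 of the 9 passed, where 34.1% of all tested genes did: Dnmt1, the maintenance methyltransferase, was higher in knockout by 0.31 ± 0.05 (adjusted p = 0.0041, limma) and Tet1 lower by 0.49 ± 0.15 (adjusted p = 0.0394, limma).

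All 13 repressor genes were tested, and 0 differed between genotypes on day 0 and on day 3, where 0.369% and 1.19% of all genes passed. On day 6 Max, L3mbtl2, Ring1, Setdb1 and Tfdp1 did not pass. Of the others 6 were lower in knockout (16.2% of all genes were) and 2 higher, 8 of 13 where 34.1% of all genes passed. Among the 6 were Mga (25.2 and 25.2 FPKM against 21.6 and 21.7), Pcgf6, a defining subunit of PRC1.6 (27.9 and 26.4 against 21.7 and 19.0), and E2f6 (12.9 and 14.5 against 11.03 and 12.1). The largest difference was that of Cbx3, a heterochromatin protein, at 232 and 225 against 132 and 129 FPKM (-0.81 ± 0.09, adjusted p = 0.000671, limma). The 2 higher genes encode the histone H3 lysine 9 methyltransferases Ehmt1 (0.20 ± 0.06) and Ehmt2 (0.41 ± 0.07). Rnf2, the catalytic subunit of PRC1, was lower by 0.34 ± 0.08 (adjusted p = 0.0136, limma) and Rybp, a PRC1 subunit, by 0.30 ± 0.08 (adjusted p = 0.0196, limma), while Tfdp1, the partner of E2F proteins, was 113 and 106 against 112 and 109 FPKM.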

How the data were processed

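The authors deposited FPKM per gene for 12 embryoid body libraries (75-base single-end reads, on genome build mm10) and, for stem cells (150-base paired-end reads), FPKM with estimated counts of fragments per gene; per the labels and the submitters' processing notes, reads were trimmed with Trim Galore 0.4.1 and mapped with TopHat2 2.0.13, and Cufflinks 2.2.1 is among the tools named. Which step made each table is not stated in these sources. Spike-in rows (92) were left out. From the deposited FPKM, log2(FPKM + 1) was computed and fitted with limma 3.58.1 (R 4.3.3, trended variance). The fit had 6 groups of 2 over 12472 genes with a mean of at least 1 FPKM. An exact permutation of 2 against 2 libraries cannot go below p = 0.333. Calls therefore rest on variance pooled over all 6 groups and shared across genes. This pooling takes the spread to be equal on every day. Without the day 6 libraries, 360 genes passed between genotypes on day 0 and 545 on day 3, against 46 and 149. With only its own 4 libraries fitted, day 6 gave 20 against 4249. P-values measure the spread between these libraries. Stem cell values carry no test; their fragment totals were about 9850000 to 13100000. Depth of the embryoid body libraries was estimated from single-read FPKM steps in 1338 low genes.

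The 8 genes and all gene lists were chosen with earlier results of these data known. Other genes named are those past the threshold in a genotype comparison or interaction (up to 4 per list), the 3 most abundant of a list, and the 3 with the highest correlation to each tested gene (not all are reported here); Hormad1, Piwil2, Dnmt3l, Tdrd7, Tet1 in the day steps, Mga, E2f6, Ehmt1, Rybp on day 6, Stra8, Tex11 and Tex15 were named where the rule did not reach them, after their values were seen. Promoter sequences are RefSeq's (GRCm38.p6) and were matched by symbol for 8 of 8 genes; exon overlap is from GENCODE M21. Replicate numbers were checked for pairing: differences between replicates 1 and 2 correlated between groups at -0.081 to 0.243 over genes. The highest value was that of the 2 genotypes on day 6, and the next was 0.083. The main fit has no replicate block, though a part shared by replicate number on day 6 may exist, and a fit with the block is among the other settings. Chromatin immunoprecipitation data were not used here.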

Additional observations from a re-analysis of the deposited data

How the results depend on the processing

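Each of the 63 tested values (7 genes, 9 comparisons) was recomputed under up to 20 other settings, which gave 1211 values: 1157 kept direction and side of the threshold, 23 lost the call, 7 gained one, 24 uncalled values changed sign, and 0 called values reversed. The counts for day 0, for day 3, for both steps in knockout, for the first step in wild type and for the first interaction stayed within 1.5 times under all of their settings. On day 6 the count lower in knockout, 2, was 0 when only the libraries compared were fitted, and 1 to 4 with 1 library left out (1 without wild type replicate 1 or knockout replicate 2, 4 without wild type replicate 2). The count for wild type day 6 against day 3, 5, was 0 when only the libraries compared were fitted. There 16 of all genes passed, against 4476 in the main fit. This member count moved as well when single libraries were left out. The second interaction, 0, was 1 with a pseudocount of 0.1 (Sycp1, adjusted p = 0.0303, limma) and 0 to 1 with 1 library left out (1 without wild type replicate 2 of day 6). With the replicate number as a block it was 1 (Sycp3, adjusted p = 0.0423, limma); the block moved no other count by over 1.5 times. A block within each genotype, and the rescaling to equal sums, were added after seeing the data; the former ended the wild type call of Mov10l1 in the second step (adjusted p = 0.0506, limma). Rescaling moved the median of all genes to 0.12 for knockout day 3 against day 0. At day 6, 5 to 189 reads per gene limit what can be resolved.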

Other observations

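Taf7l, below the filter of the main test, fell further from day 3 to day 6 in wild type when genes from a mean of 0.1 FPKM were tested (log2 difference -0.40 ± 0.11, adjusted p = 0.0268, limma), and in knockout its difference was -0.19 ± 0.11 (adjusted p = 0.192, limma). Among the other meiosis genes, Stra8, the retinoic acid-induced gatekeeper of meiosis, went from 7.80 and 6.08 FPKM in wild type and 2.95 and 4.29 in knockout at day 0 to between 0 and 0.166 FPKM on day 6. Tex11, an X-linked meiosis gene, went from between 3.54 and 5.72 FPKM at day 0 to between 0.0328 and 0.220 on day 6. Tex15 kept 1.41 to 2.26 FPKM on day 6, of 4.11 to 7.62 at day 0.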
